A study of Mus musculus with 6 samples.

Results

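Interferon-stimulated genes are the genes that cells switch on when an interferon binds its receptor, and 37 of the 39 listed here could be measured among the 18193 genes that had a probe set of their own. The members were taken by gene symbol, and where several probe sets named a gene the brightest of them on average was read. The 2 that could not be measured were Isg15, whose probe set is shared with another gene, and Ifi44, which no probe set named. Expression had been profiled with 2 arrays for each of 3 groups of C57BL/6J mouse marrow cells. The MN1VP16 and MN1 groups held GFP-positive cells carrying the gammaretroviral vector pSF91-MN1VP16-IRES-GFP or pSF91-MN1-IRES-GFP. MN1 works as a cofactor of transcription and drives acute myeloid leukaemia when overexpressed in mouse marrow. VP16 names an activator protein of herpes simplex virus, here in the name of the second construct. For both constructs the donors had received 5-fluorouracil (150 mg/kg over 4 days). Their marrow was kept with IL6, IL3 and SCF for 48 hours, transduced, and given to lethally irradiated syngeneic recipients, whose GFP-positive cells were sorted after 4 weeks. The Gr1Mac group held cells sorted from marrow by Gr1 and CD11b, which granulocytes and monocytes carry on their surface. The labels do not say whether the Gr1Mac cells came from transplanted mice. Nor do they tie the arrays of a group to different mice, so the p-values reflect the spread from array to array, which may be technical within MN1VP16 and MN1. Neither age nor sex is given.

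Type I interferons (the Ifna and Ifnb1 products) act through the receptor chains Ifnar1 and Ifnar2 and the kinases Jak1 and Tyk2, which activate a complex that holds Stat2 and Irf9. That complex binds a DNA element called the interferon-stimulated response element (ISRE). Type II interferon (Ifng) acts through Ifngr1, Ifngr2, Jak1 and Jak2 on genes that carry a gamma-activated site (GAS). The products of these genes block viral RNA and its translation, sense foreign nucleic acids, attack vacuoles that hold pathogens and damp or prolong the signal itself. Many of them are made at a basal level in marrow cells without infection.

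The promoter windows are shown first and were searched for both elements named above. RefSeq windows (GRCm38.p6, 250 bases before to 50 after a start) were found for 26 of the 37 measured members. An ISRE core, spelled GAAA, any 2 bases and GAAA again (read on the other strand as TTTC, any 2 bases and TTTC), and searched on both strands, stood in the windows of 14 of these 26 (53.8%), against 3.99% of the 27025 genes with a window. A GAS core, spelled TTCNNNGAA, stood in 7 of the 26 (26.9%), against 9.55% of all genes with a window, and the cores of both kinds overlapped in 1 member, Bst2. The 6 stretches below run 5′ to 3′ on the gene's strand, end before the start of transcription and carry the ISRE cores in capitals. They were taken first from members called in a comparison and then by brightness.
Trim30a (chr7:104465194-104465274, minus strand): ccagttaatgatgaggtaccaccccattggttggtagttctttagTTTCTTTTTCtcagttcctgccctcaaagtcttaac
Oas3 (chr5:120777680-120777779, minus strand): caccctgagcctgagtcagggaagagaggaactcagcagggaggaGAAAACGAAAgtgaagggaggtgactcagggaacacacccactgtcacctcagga
Ifit3 (chr19:34583328-34583461, plus strand): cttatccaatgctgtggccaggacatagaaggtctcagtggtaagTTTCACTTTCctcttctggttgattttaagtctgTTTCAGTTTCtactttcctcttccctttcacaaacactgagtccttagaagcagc
Rsad2 (chr12:26456518-26456617, minus strand): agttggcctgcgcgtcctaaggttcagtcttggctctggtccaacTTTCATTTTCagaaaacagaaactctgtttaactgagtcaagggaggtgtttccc
Igtp (chr11:58199477-58199555, plus strand): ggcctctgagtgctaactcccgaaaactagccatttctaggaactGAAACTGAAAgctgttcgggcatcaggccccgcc
Gbp2 (chr3:142620559-142620658, plus strand): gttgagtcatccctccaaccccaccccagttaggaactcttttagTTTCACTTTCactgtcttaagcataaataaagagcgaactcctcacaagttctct
Ifit3 carried 2 ISRE cores in its stretch and each of the other stretches carried 1. The window of Trim30a held a further core after the start, outside its stretch. A match of these letters is a description of the window and not a binding site.

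Some features of the whole series bear on every value below. Xist, the RNA of the inactive X chromosome, was high on both MN1 arrays and on Gr1Mac array 1. The Y-linked gene Kdm5d was high on both MN1VP16 arrays and on Gr1Mac array 2, so sex and construct cannot be told apart between MN1VP16 and MN1. The Gr1Mac arrays, with opposite patterns, held cells of different mice, and any gap between them goes together with sex. The 6 hybridisation control features (BioC, BioDn and CreX, bacterial or phage sequences added to each sample) averaged 11.24 log2 units on MN1VP16 array 1 but 9.08 on MN1VP16 array 2, against 11.29 and 10.93 in MN1 and 9.69 and 9.56 in Gr1Mac. MN1VP16 array 2 thus fell with the Gr1Mac arrays and MN1VP16 array 1 with the MN1 arrays. Itgam, which encodes the CD11b used for the sort, averaged 9.16 ± 0.40 in MN1VP16, 7.31 ± 0.50 in MN1 and 10.93 ± 0.02 in Gr1Mac (log2, SD, n = 2 each). Xist read up to 5.84 on the Y-high arrays, which served as a guide to background, and only Mx1 in MN1 and Gbp8 in all 3 groups had a group mean at or under it. Precision is limited by the small number of arrays.

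Across the 6 arrays the interferon-stimulated genes were highest on a single array, MN1VP16 array 2. That array held the highest reading of the 6 for 28 of the 37 members, against 10.8% of all genes. The other MN1VP16 array held the highest reading for 0 members (11.3% of all genes). Gr1Mac array 1 was the highest for 6 members (21.6% of all genes), namely Samhd1, Rsad2, Dhx58, Mx1, Sp100 and Ifi35. MN1 array 2 was the highest for Isg20 and Ifi27 (22.2% of all genes), and Gr1Mac array 2 for Ddx58 (23.6%). At the low end, MN1 array 1 held the lowest reading for 18 members, against 14.7% of all genes. The median level of the members was 9.21 and 10.14 log2 units on MN1VP16 arrays 1 and 2, 8.51 and 8.62 on the MN1 arrays, and 9.56 and 8.91 on Gr1Mac arrays 1 and 2.

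**Figure D1:**
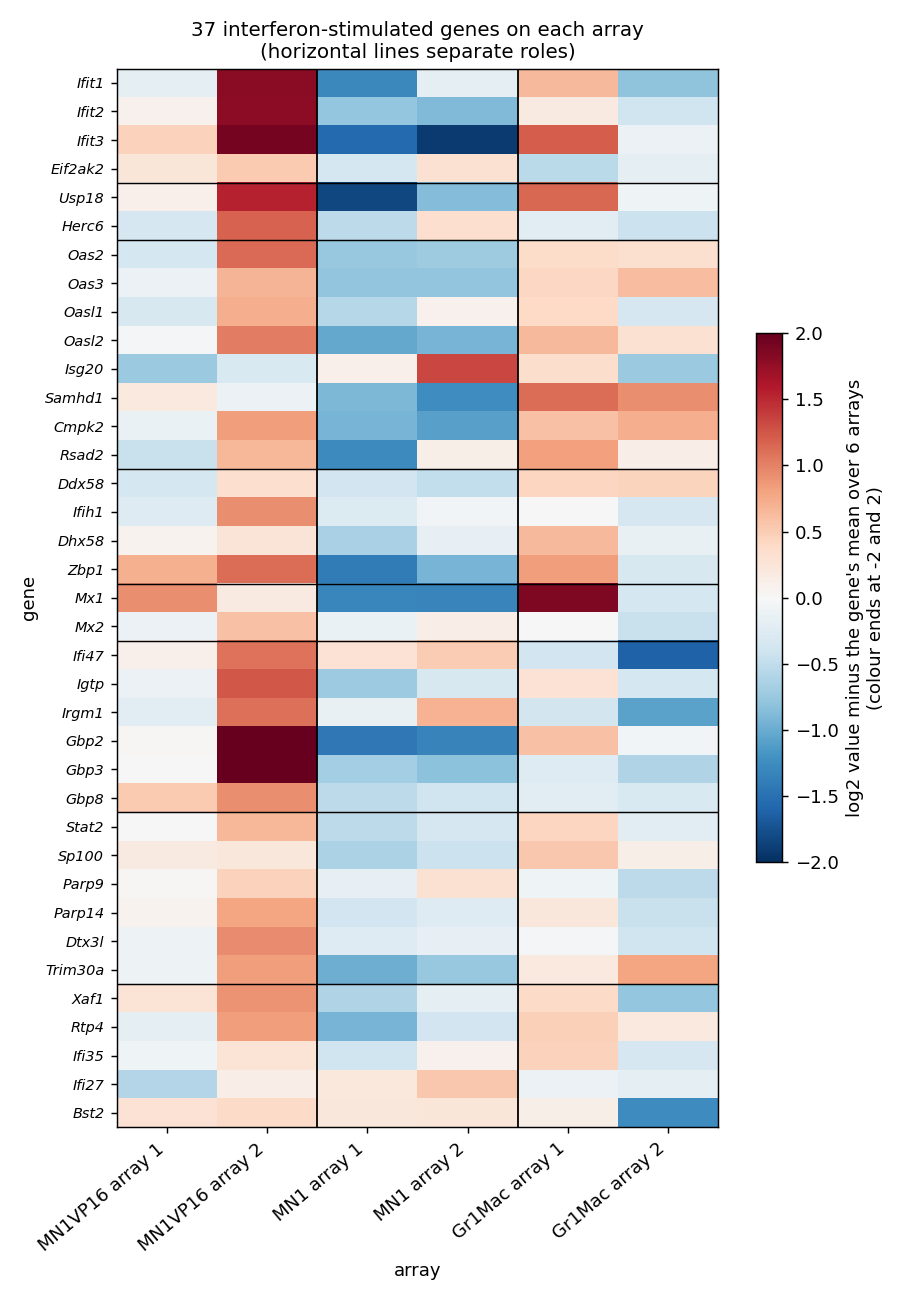
Log2 value of each of the 37 measured interferon-stimulated genes (rows, grouped by role) on each array (columns), as the difference from the gene's mean over the 6 arrays, red above and blue below. The column of MN1VP16 array 2 is red for most genes, and both MN1 columns are blue for Ifit3, Usp18, Zbp1, Mx1 and Gbp2.

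The arrays of the MN1VP16 and Gr1Mac groups differed in these genes by amounts in the range of the differences between groups, while the MN1 arrays lay closer together. On MN1VP16 array 2, 35 of 37 members (94.6%) read higher than on array 1, against 47.8% of all genes. The exceptions were Mx1 and Samhd1. The median gap was 0.95 log2 units for the members and -0.01 for all genes, and 16 members but 1.8% of all genes had a gap of at least 1. In Gr1Mac, 32 of 37 members (86.5%) read higher on array 1 than on array 2, against 53.6% of all genes, with a median gap of 0.58. In MN1, 30 of 37 (81.1%) read higher on array 2 than on array 1, against 50.5% of all genes, with a smaller median gap of 0.22. The direction of subtraction in each group was the one that gave the members a median above 0, so these shares describe how far the members moved together within a group and carry no test.

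The gap within MN1VP16 had a median of 1.58 log2 units over the 4 members formed by the Ifit genes and Eif2ak2, 1.48 over Usp18 and Herc6, and 1.34 over the 6 interferon-inducible GTPases. Gbp3 had the widest gap of all members, 2.34, followed by Gbp2 at 2.18 and Ifit1 at 2.00. In Gr1Mac the widest gap was that of Mx1, at 2.23, and in MN1 that of Rsad2, at 1.39. Of the 100 genes with the largest gap between the MN1VP16 arrays, 3 were members (Gbp3, Gbp2 and Ifit1), while the members make up 0.203% of all genes. The 14 members with an ISRE core in the window had a median gap of 1.15 within MN1VP16, against 0.98 for the 12 members whose window held none.

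**Figure D2:**
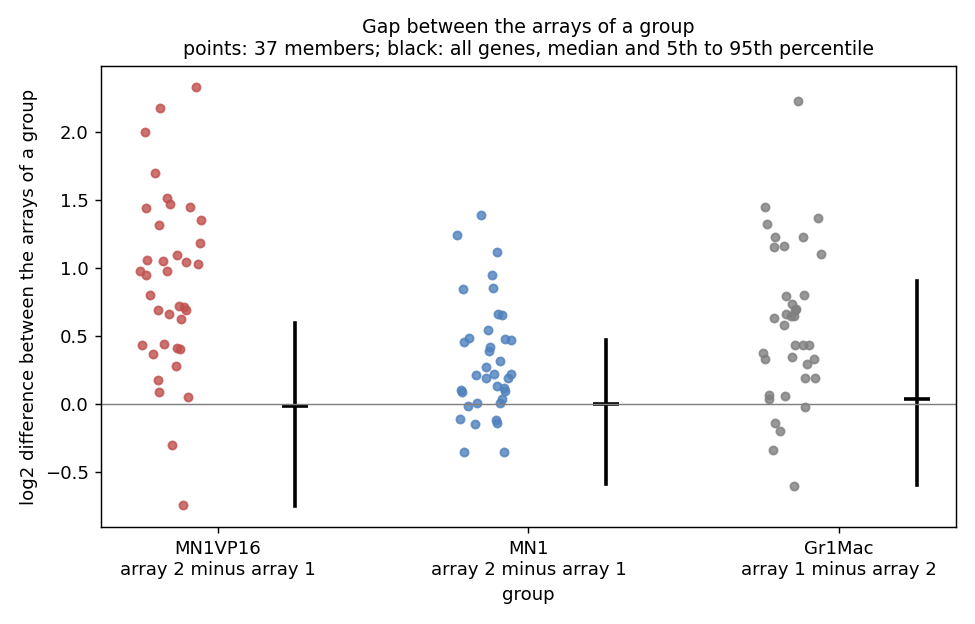
Log2 difference between the arrays of a group, with the 37 members as points and all 18193 genes as a black bar that runs over the 5th to 95th percentile with a tick at the median. Of the members, 26 lie above the 95th percentile of all genes in MN1VP16, 12 in MN1 and 9 in Gr1Mac.

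Other genes moved with that gap. Stem and progenitor markers were lower on MN1VP16 array 2 than on array 1 by a median of 1.44 log2 units, and only Kit and Hoxa9 of the 6 were higher there. Their mean over the list was 9.98 and 9.05 on MN1VP16 arrays 1 and 2, 10.88 and 11.06 in MN1, and 6.02 and 5.81 in Gr1Mac. Monocyte markers had list means of 11.14 and 10.45 on the MN1VP16 arrays, 8.09 and 8.15 in MN1, and 11.30 and 10.44 in Gr1Mac. By limma 4 of these 5 were called lower in MN1 than in Gr1Mac (12.0% of all genes). Higher in MN1VP16 than in MN1 were 4 (1.15%). Of 8 neutrophil markers, 5 were called lower in MN1 than in Gr1Mac (12.0% of all genes) and 0 higher (17.3%). On MN1VP16 array 2, erythroid markers were higher than on array 1 in 1 of 5 and monocyte markers in 1 of 5. Neutrophil markers were higher there in 2 of 8 and B cell markers in 3 of 5. T and NK cell markers were higher there in 4 of 5, with list means of 5.90 and 6.50 on the MN1VP16 arrays, 5.85 and 5.62 in MN1, and 6.66 and 6.62 in Gr1Mac. Among them Nkg7, a granule gene of cytotoxic cells, read 9.36 and 12.05 on MN1VP16 arrays 1 and 2, while Cd3d, Cd3g and Ncr1 stayed under the background guide on both. Markers of plasmacytoid dendritic cells, which are known for making interferon, were higher on MN1VP16 array 2 in 3 of 6, with list means of 7.20 and 6.99 on the MN1VP16 arrays, 7.68 and 7.77 in MN1, and 6.57 and 6.19 in Gr1Mac. By limma 4 of these 6 were called higher in MN1 than in Gr1Mac (17.3% of all genes). Lower in MN1VP16 than in MN1 was 1 (2.7% of all genes), and the list includes the member Bst2. The surface marker Siglech read 6.10 and 5.58 on the MN1VP16 arrays, 5.60 and 5.40 in MN1, and 5.81 on both Gr1Mac arrays. Only its reading on MN1VP16 array 1 was above the background guide. On both MN1 arrays Siglech lay below both Gr1Mac arrays, while Ccr9, Tcf4, Cox6a2, Klk1 and Bst2 lay above both. The part of these markers in the interferon-stimulated genes was not tested. In sorted bulk samples, fewer cells of a type and less RNA per cell cannot be told apart.

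In MN1 cells 9 of the 37 members were called lower than in Gr1Mac cells and none higher. The mean was higher in MN1 for 10 members (27.0%, against 44.5% of all genes). A call means an adjusted p under 0.05 from limma, a linear model fitted to all genes, with Benjamini-Hochberg adjustment over the 18193 genes. The 9 that fell (24.3%, against 12.0% of all genes called lower) were Samhd1, Cmpk2, Oas3, Oasl2, Ifit3, Ddx58, Zbp1, Sp100 and Trim30a. By limma 0 members were called higher, against 17.3% of all genes. At an unadjusted p under 0.05, limma found 1 member higher (22.1% of all genes) and 13 lower (35.1%, against 17.7% of all genes). Both MN1 arrays lay below both Gr1Mac arrays for 20 members (35.8% of all genes) and above both for 4 (30.9% of all genes), which were Ifi47, Irgm1, Ifi27 and Bst2. The median difference was -0.53 log2 units over the members and -0.06 over all genes. It was -0.17 without Gr1Mac array 1, -0.86 without Gr1Mac array 2, -0.36 without MN1 array 1 and -0.66 without MN1 array 2. Of the 9 calls, that of Samhd1 alone was kept without either MN1 array or without Gr1Mac array 1. Without Gr1Mac array 2 the calls of Cmpk2, Ddx58, Oas3, Oasl2 and Trim30a were lost. With a block for the control feature split, the median difference was 0.43, and 1 member was called lower and 1 higher. Over all genes 572 were then called lower and 914 higher, against 2187 and 3147. No MN1 array shares its side of that split with a Gr1Mac array. That fit therefore joins the groups only through the MN1VP16 arrays. Its median takes in the gap between those arrays and is no direct comparison of MN1 with Gr1Mac.

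MN1VP16 cells had higher mean levels than MN1 cells for 35 of the 37 members (94.6%), against 53.4% of all genes, but only Samhd1 and Gbp8 passed the test. Those 2 calls make 5.41% of the members, against 1.15% of all genes called higher. Gbp8 read under the background guide on every array. By limma 0 members were called lower, against 2.7% of all genes. At an unadjusted p under 0.05, limma found 16 members higher (43.2%, against 9.15% of all genes) and 0 lower (13.3% of all genes). Both MN1VP16 arrays lay above both MN1 arrays for 24 members (30.5% of all genes) and below both for 2, Isg20 and Ifi27 (29.2% of all genes). The median difference was 0.76 log2 units over the members and 0.03 over all genes. That median was 0.69 without MN1 array 1 and 0.95 without MN1 array 2. Both calls were lost without any 1 array other than MN1VP16 array 1, and without that array the call of Samhd1 was lost. Set singly against the MN1 mean, MN1VP16 array 1 had a median member difference of 0.42 and MN1VP16 array 2 of 1.25. The value of array 1 is also the comparison within the side of the control feature split that holds the MN1 arrays, where array 1 read above both MN1 arrays for 24 members (43.4% of all genes) and below both for 4 (39.1%).

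Between MN1VP16 and Gr1Mac cells the shares of members called were close to those of all genes. Gbp8 was called higher (1 of 37, 2.7%, against 3.66% of all genes) and Samhd1 lower (1 of 37, against 2.11% of all genes). Both MN1VP16 arrays lay above both Gr1Mac arrays for 7 members (24.8% of all genes), namely Eif2ak2, Ifi47, Irgm1, Gbp3, Gbp8, Parp9 and Bst2. They lay below both for 2, Samhd1 and Ddx58 (25.2% of all genes). For Eif2ak2 the probe set used gave a difference of 0.75, while its further sets gave -0.10 and -0.64. The median difference was 0.47 log2 units over the members and 0.00 over all genes. That median was -0.11 without MN1VP16 array 2 and 0.81 without MN1VP16 array 1, so its direction rested on array 2. Within the side of the control feature split that holds the Gr1Mac arrays, MN1VP16 array 2 read above both of them for 29 members (34.9% of all genes) and below both for 2 (36.3%). The 2 calls depended on single arrays too. Gbp8 lost its call without any 1 of the 6 arrays, with a highest adjusted p by limma of 0.141 over all alternatives, and so did Samhd1, with a highest of 0.168. The comparisons with Gr1Mac share the Gr1Mac arrays, and those with MN1 share the MN1 arrays.

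**Figure D3:**
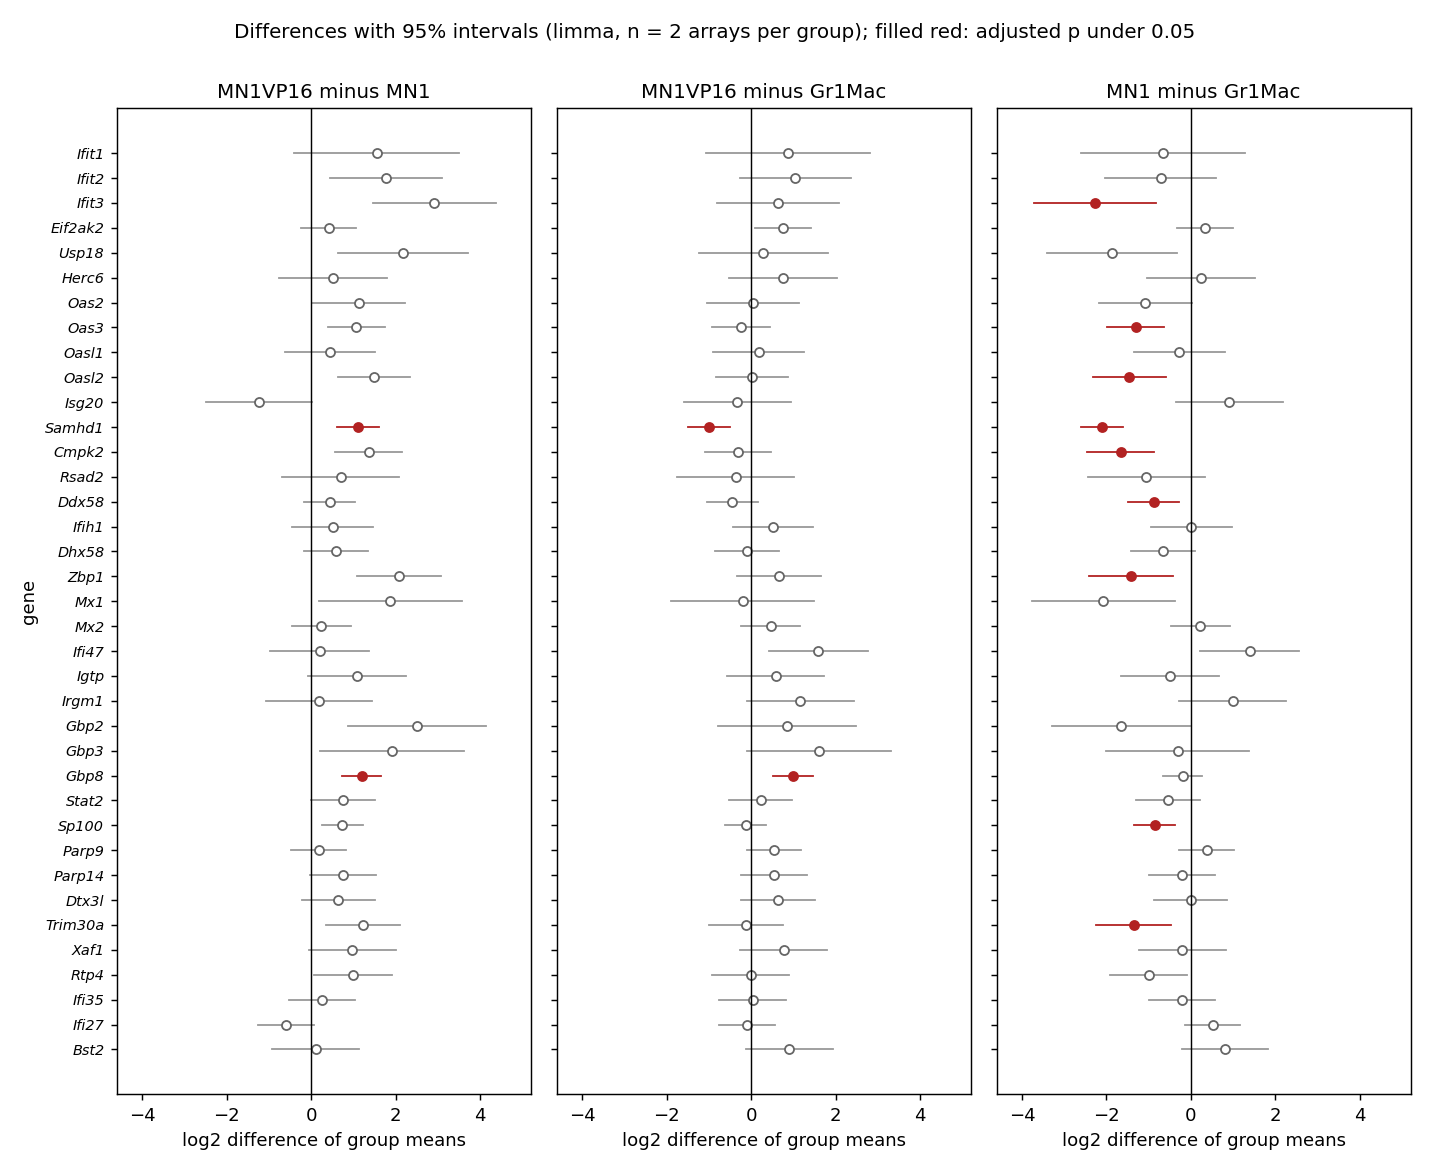
Log2 difference of group means for each of the 37 members (rows) in each comparison (panels), with 95% intervals from limma; filled red points passed the test. Red points number 2 in MN1VP16 minus MN1, 2 in MN1VP16 minus Gr1Mac and 9 in MN1 minus Gr1Mac, where all 9 lie left of 0.

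Among genes whose products bind viral RNA or stop translation, Ifit3 changed and the other 3 measured members passed in no comparison. Ifit3, a partner of Ifit1 in binding viral RNA caps, read 9.21 and 10.66 on the MN1VP16 arrays, 7.20 and 6.84 on the MN1 arrays, and 9.96 and 8.63 on the Gr1Mac arrays. The MN1 arrays were the lowest and did not overlap the others. It fell by 2.27 ± 0.59 log2 units (SE) in MN1 against Gr1Mac, 4.83-fold (limma adjusted p = 0.0334), a call lost without either MN1 array or Gr1Mac array 1. Between MN1VP16 and MN1 it had the largest difference of the members, 2.91 ± 0.59, which did not pass (adjusted p = 0.0557 by limma). Ifit2 read 9.05 and 10.76 in MN1VP16, 8.19 and 8.08 in MN1, and 9.15 and 8.56 in Gr1Mac, with the MN1 arrays again lowest. Ifit1 overlapped between groups, at 7.86 and 9.87 in MN1VP16, 6.76 and 7.88 in MN1, and 8.71 and 7.26 in Gr1Mac. Eif2ak2, the kinase PKR that stops translation when it meets double-stranded RNA, moved little and lay between 6.19 and 7.25 on all arrays.

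Genes of the ISG15 system were called in no comparison. Usp18, which removes ISG15 from proteins and blocks the type I receptor, read 8.36 and 9.81 in MN1VP16, 6.45 and 7.40 in MN1, and 9.41 and 8.18 in Gr1Mac. Both MN1 arrays lay below the other 4, yet the gap within each group reached about 1 log2 unit or more, at 1.45 in MN1VP16, 0.95 in MN1 and 1.23 in Gr1Mac. Its difference was 2.16 ± 0.63 in MN1VP16 against MN1 (limma adjusted p = 0.116) and -1.87 ± 0.63 in MN1 against Gr1Mac (0.0731 as the adjusted p). Herc6, the main ISG15 ligase of mice, read 7.66 and 9.18 in MN1VP16, 7.47 and 8.33 in MN1, and 7.76 and 7.57 in Gr1Mac, with the highest reading on MN1VP16 array 2 and the next on MN1 array 2.

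The enzymes of nucleotides and nucleic acids held 4 of the 9 members that fell in MN1 against Gr1Mac. Samhd1, which breaks down deoxynucleotides and so starves retroviruses, read 12.02 and 11.73 in MN1VP16, 10.94 and 10.59 in MN1, and 12.96 and 12.77 in Gr1Mac. The groups did not overlap in any pair, and MN1VP16 lay between the others. Samhd1 fell by 2.10 ± 0.20 log2 units in MN1 against Gr1Mac, 4.28-fold (limma adjusted p = 0.00182). This call was kept under all 15 alternatives tried, with adjusted p by limma between 0.000876 and 0.0286. It rose by 1.11 ± 0.20 in MN1VP16 against MN1 (adjusted p = 0.0466) and fell by 0.99 ± 0.20 in MN1VP16 against Gr1Mac (adjusted p = 0.0483), both by limma. Those calls were lost under 10 and 11 of 15 alternatives, including the removal of any 1 array. Its other 4 probe sets gave differences between -2.27 and -1.60 for MN1 against Gr1Mac. Samhd1 had no ISRE core in its window but a GAS core.

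Cmpk2, a mitochondrial nucleotide kinase beside Rsad2 in the genome, read 9.56 and 10.54 in MN1VP16, 8.77 and 8.62 in MN1, and 10.29 and 10.43 in Gr1Mac. It fell by 1.66 ± 0.32 in MN1 against Gr1Mac (limma adjusted p = 0.0122). Oas3, which makes the 2′-5′ oligoadenylates that activate RNase L, read 8.96 and 9.76 in MN1VP16, 8.29 and 8.30 in MN1, and 9.50 and 9.70 in Gr1Mac. It fell by 1.31 ± 0.28 (limma adjusted p = 0.0166). Oasl2, a relative of the same enzymes, read 9.80 and 10.86 in MN1VP16, 8.80 and 8.90 in MN1, and 10.48 and 10.14 in Gr1Mac, and fell by 1.46 ± 0.35 (limma adjusted p = 0.0256). In all 3 genes the MN1 arrays lay within 0.15 of each other and below the rest, and all 3 calls were lost without any 1 MN1 or Gr1Mac array. Isg20, an RNA exonuclease, had its highest reading on MN1 array 2, at 9.62 and 10.06 in MN1VP16, 10.46 and 11.70 in MN1, and 10.72 and 9.61 in Gr1Mac. Rsad2, the radical enzyme viperin, read 10.68 and 11.78 in MN1VP16, 9.83 and 11.23 in MN1, and 11.94 and 11.24 in Gr1Mac, and neither it nor Isg20, Oas2 or Oasl1 passed.

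Of the nucleic acid sensors, Ddx58 and Zbp1 fell in MN1 against Gr1Mac. Ddx58, the RNA sensor RIG-I, read 9.40 and 10.09 in MN1VP16, 9.37 and 9.26 in MN1, and 10.18 and 10.20 in Gr1Mac. Its difference was -0.88 ± 0.25 log2 units (limma adjusted p = 0.0435), and the call was lost without any 1 MN1 or Gr1Mac array. Zbp1, which detects Z-form nucleic acid and starts necroptosis, read 8.68 and 9.08 in MN1VP16, 6.56 and 7.05 in MN1, and 8.80 and 7.64 in Gr1Mac. It fell by 1.42 ± 0.41 in MN1 against Gr1Mac, 2.67-fold (limma adjusted p = 0.0457), and stood 2.07 ± 0.41 higher in MN1VP16 than in MN1 without passing (adjusted p = 0.0526). The call of Zbp1 was lost without any 1 array other than Gr1Mac array 2. Ifih1, the RNA sensor MDA5, had its highest reading on MN1VP16 array 2, at 9.65 and 10.84 in MN1VP16, 9.63 and 9.85 in MN1, and 9.89 and 9.56 in Gr1Mac. Dhx58, which modulates both sensors, read 8.80 and 8.98 in MN1VP16, 8.07 and 8.56 in MN1, and 9.38 and 8.57 in Gr1Mac.

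The dynamin-like Mx genes were among the dimmer members by mean level and passed in no comparison. Mx1, whose C57BL/6 allele lacks coding exons and gives no antiviral protein, read 7.79 and 7.05 in MN1VP16, 5.55 and 5.54 in MN1, and 8.73 and 6.50 in Gr1Mac. The MN1 arrays lay under the background guide, while Gr1Mac array 1 stood 2.23 above array 2, and the difference of -2.07 ± 0.69 in MN1 against Gr1Mac did not pass (limma adjusted p = 0.0724). Mx2 lay between 5.77 and 6.80 on all arrays.

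**Figure D4:**
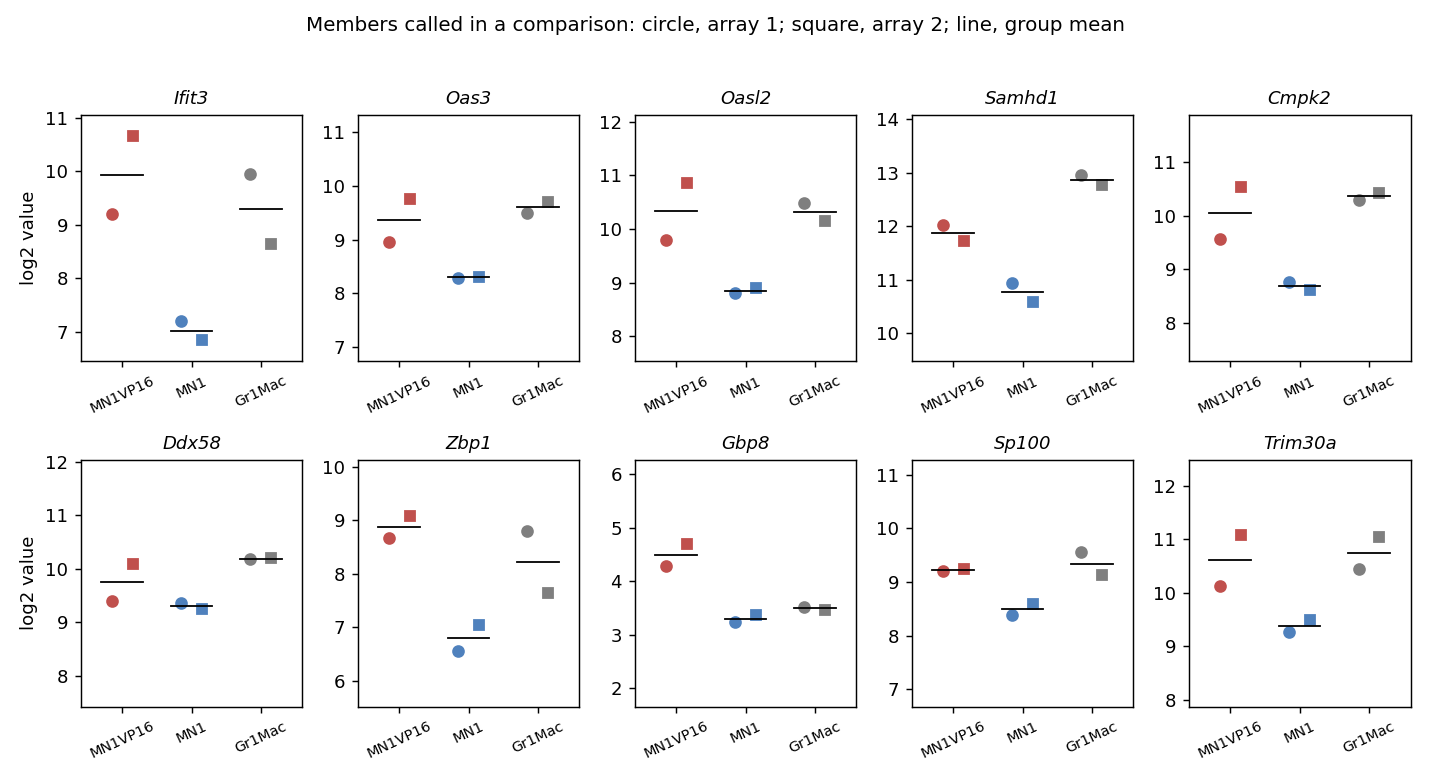
Log2 values of the 10 members called in at least 1 comparison, with a circle for array 1, a square for array 2 and a line at the group mean; all panels span the same height. In 9 panels both MN1 arrays lie below both Gr1Mac arrays by a called difference, and in the panel of Gbp8 both MN1VP16 arrays lie above the other 4 at readings under 5.84.

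The interferon-inducible GTPases, which attack the membranes around vacuolar pathogens and are strong targets of type II interferon, fell in 0 of 6 and rose only in Gbp8, in both comparisons of MN1VP16. At an unadjusted p under 0.05 limma found 1 member of the whole list higher in MN1 than in Gr1Mac, and it belonged here: Ifi47, at 11.61 and 12.59 in MN1VP16, 11.79 and 12.01 in MN1, and 11.13 and 9.89 in Gr1Mac (difference 1.39 ± 0.48, adjusted p = 0.0801). All 4 MN1VP16 and MN1 arrays lay above both Gr1Mac arrays. Irgm1, an autophagy regulator, had a like order, at 8.78 and 10.10 in MN1VP16, 8.84 and 9.69 in MN1, and 8.63 and 7.92 in Gr1Mac. Gbp2, a guanylate-binding protein, was lowest in MN1, at 9.30 and 11.48 in MN1VP16, 7.84 and 7.93 in MN1, and 9.85 and 9.22 in Gr1Mac. Its difference of 2.50 ± 0.67 between MN1VP16 and MN1 did not pass (limma adjusted p = 0.100), and its second probe set gave 2.64. Gbp3 read 8.46 and 10.80 in MN1VP16, 7.78 and 7.64 in MN1, and 8.20 and 7.85 in Gr1Mac, and array 2 of MN1VP16 alone stood apart. Igtp read 9.33 and 10.69 in MN1VP16, 8.74 and 9.13 in MN1, and 9.75 and 9.10 in Gr1Mac. Gbp8 read 4.28 and 4.69 in MN1VP16, 3.23 and 3.36 in MN1, and 3.52 and 3.46 in Gr1Mac, all of them below the background guide. Its differences were 1.19 ± 0.19 against MN1 (limma adjusted p = 0.0358) and 0.99 ± 0.19 against Gr1Mac (0.0423 as the adjusted p). The call against MN1 was lost without any 1 array other than MN1VP16 array 1.

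Among the factors of transcription and of protein modification, Trim30a and Sp100 fell in MN1 against Gr1Mac and the other 4 did not pass. Trim30a, a ubiquitin ligase family member that restrains Toll-like receptor signalling, read 10.13 and 11.08 in MN1VP16, 9.27 and 9.49 in MN1, and 10.44 and 11.04 in Gr1Mac. It fell by 1.36 ± 0.36 (limma adjusted p = 0.0354), and its second probe set gave -1.35. Sp100, a nuclear body protein that silences viral DNA, read 9.20 and 9.25 in MN1VP16, 8.39 and 8.58 in MN1, and 9.56 and 9.13 in Gr1Mac, and fell by 0.86 ± 0.20 (limma adjusted p = 0.0225). Sp100 had the narrowest gap of the members between the MN1VP16 arrays, 0.05. Both calls were lost without any 1 MN1 array or without Gr1Mac array 1, and that of Trim30a also without Gr1Mac array 2. Stat2, the factor that carries the type I signal to the ISRE, was also among the dimmer members. Its readings were 6.60 and 7.27 in MN1VP16, 6.08 and 6.27 in MN1, and 7.04 and 6.38 in Gr1Mac. Parp9 and its ubiquitin ligase partner Dtx3l lay between 9.50 and 10.48 and between 8.89 and 10.25, with Parp14, another ADP-ribosyltransferase, between 8.91 and 10.14.

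The 5 measured genes of other functions passed in no comparison. Rtp4, a receptor transporter that binds viral RNA, read 10.48 and 11.51 in MN1VP16, 9.73 and 10.27 in MN1, and 11.15 and 10.85 in Gr1Mac, with the MN1 arrays lowest. Xaf1, which promotes apoptosis, read 9.38 and 10.01 in MN1VP16, 8.51 and 8.94 in MN1, and 9.50 and 8.35 in Gr1Mac. Ifi27, a mitochondrial and nuclear membrane protein, was highest in MN1, at 10.91 and 11.64 in MN1VP16, 11.72 and 12.04 in MN1, and 11.40 and 11.33 in Gr1Mac. With Isg20 it was the only member with a lower mean in MN1VP16 than in MN1, by -0.60 ± 0.27 (limma adjusted p = 0.260) and by -1.24 ± 0.52 for Isg20 (adjusted p = 0.230). Bst2, the virus-tethering protein tetherin, was level at 8.22 to 8.37 on the MN1VP16 and MN1 arrays, against 8.10 and 6.74 on the Gr1Mac arrays. Ifi35 lay between 11.01 and 11.86.

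Of 74 genes listed for the interferon pathway outside the members, 64 were measured. In MN1 against Gr1Mac, 14 fell and 4 rose, in MN1VP16 against Gr1Mac 3 fell and 0 rose, and in MN1VP16 against MN1 2 rose and 1 fell, by limma. Over all genes 12.0% fell and 17.3% rose in the first of these comparisons, 2.11% fell and 3.66% rose in the second, and 1.15% rose and 2.7% fell in the third. The 5 measured ligand genes (Ifnb1, Ifna1, Ifna2, Ifna4 and Ifng) read at most 5.99 and were called in no comparison. Of the receptors, Ifnar2, a chain of the type I receptor, fell by 1.07 ± 0.22 log2 units in MN1 against Gr1Mac (limma adjusted p = 0.0149), and Ifnlr1, of the type III receptor, fell by 2.61 ± 0.33 (adjusted p = 0.00358). The kinase Jak1, shared by all interferon receptors, read 10.15 and 10.13 in MN1VP16, 9.91 and 9.92 in MN1, and 11.22 and 11.02 in Gr1Mac. Jak1 fell by 1.20 ± 0.16 in MN1 (limma adjusted p = 0.00363) and fell by 0.98 ± 0.16 in MN1VP16 (adjusted p = 0.0282), each against Gr1Mac. The adaptor Myd88, used by Toll-like receptors, and Ifnlr1 were the other genes that fell in MN1VP16 against Gr1Mac, with differences of -1.06 ± 0.18 and -1.75 ± 0.33 (limma adjusted p = 0.0311 and 0.0421). Mavs, the mitochondrial adaptor of Ddx58 and Ifih1, rose in MN1 against Gr1Mac by 2.22 ± 0.47 (limma adjusted p = 0.0161), while the adaptor Myd88 fell by 1.64 ± 0.18 (adjusted p = 0.00224). The signalling inhibitors Socs3, Pias1 and Ptpn6 fell in MN1 against Gr1Mac with differences of -3.65 ± 1.02, -0.68 ± 0.16 and -1.96 ± 0.25 (limma adjusted p = 0.0424, 0.0239 and 0.00352).

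The transcription factors Irf1, Irf3, Irf5, Irf7 and Irf9 were called in no comparison. Irf7, which drives the interferon genes and is given here after its values were seen, read 10.08 and 10.44 in MN1VP16, 8.89 and 9.47 in MN1, and 10.20 and 9.22 in Gr1Mac. Its MN1VP16 arrays were the highest but for an overlap with Gr1Mac array 1.

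Further interferon targets outside the member list, 29 of them measured, fell in 7 and rose in 3 in MN1 against Gr1Mac (12.0% and 17.3% of all genes). Those that fell were Slfn1, Slfn2, Slfn4 and Slfn5, Schlafen genes of myeloid and T cells, with differences of -3.03 to -1.98 log2 units, the DNA sensor family gene Ifi204, and Phf11d and Tdrd7. Those that rose were Lgals3bp by 2.26 ± 0.51, the galectin gene Lgals9 by 1.84 ± 0.22 and Pnpt1, a mitochondrial RNA nuclease, by 1.64 ± 0.29. In MN1VP16 against MN1, Ifi204 rose by 2.33 ± 0.32 and Phf11d by 1.68 ± 0.29, and Lgals9 fell by 1.51 ± 0.22 (limma adjusted p = 0.0284, 0.0411 and 0.0286). Of these 29 targets, 24 read higher on MN1VP16 array 2 than on array 1 (47.8% of all genes), with a median gap of 0.37. Among the 100 genes with the largest such gap were Iigp1, Gbp6, Cxcl10 and Socs3, picked out here after their values were seen. Iigp1, a GTPase induced by type II interferon, read 5.58 and 9.16 in MN1VP16, 4.89 and 6.17 in MN1, and 4.40 and 5.06 in Gr1Mac. Gbp6 read 4.89 and 8.25 in MN1VP16, 4.38 and 4.41 in MN1, and 4.61 and 4.44 in Gr1Mac. MN1VP16 array 2 was the highest array for both GTPase genes and for the chemokine gene Cxcl10, while Socs3 was highest on Gr1Mac array 2.

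The members' own further probe sets mostly went the same way. For 18 members with several probe sets, the 28 sets not used above had the sign of the one used in 26 cases for MN1VP16 against MN1, in 22 for MN1VP16 against Gr1Mac and in 25 for MN1 against Gr1Mac. All 10 further sets of the members called in MN1 against Gr1Mac had the sign of the call. The set used carried a suffix that marks shared or similar sequence (_x_at, _s_at or _a_at) for 11 members, among them Oasl2, Cmpk2, Zbp1, Sp100 and Trim30a.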

How the data were processed

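The authors deposited log2 expression values per probe set for 6 Affymetrix mouse arrays, made with RMA per the submitters' processing notes (no version is given in these sources). That method corrects background, brings all arrays to one distribution and sums up the probes of a set, and it shrinks differences of dim genes. Of 45101 lines, 64 were control features, and 34945 probe sets had 1 gene symbol, 932 several and 9160 none in GEO's platform annotation; the last 2 kinds were not used. Symbols were checked by gene number against RefSeq (GRCm38.p6), which matched 34741 and changed 0. Group (MN1, MN1VP16, Gr1Mac) was the only term in limma 3.58.1 (R 4.3.3; lmFit and eBayes, 3 residual and 3.03 prior degrees of freedom), fitted to all 6 arrays and 18193 genes. Intervals are 95%. With 2 arrays a group, no exact permutation test can reach the threshold, and none was made. Same-numbered arrays of different groups had deviations correlated at -0.05 to 0.08, so the numbers were not taken as pairs.

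The members, the roles and the pathway and marker lists were chosen with earlier results of these data known. Values on every array are given for members called in any comparison and, in each role, for the 2 largest differences and the brightest member; a few others are added for context. Of pathway genes, those called are named. Alternatives covered the genes tested, the probe set rule, centring, the variance prior, the arrays fitted, 3 blocks and leaving out each array.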

Additional observations from a re-analysis of the deposited data

How the results depend on the processing

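Values below are counts of members called higher or lower by limma, or their median log2 difference. MN1VP16 against MN1: the 2 members called higher were 4 with each array centred on its median and with an intensity trend of the prior. The count was 1 with only the 4 arrays compared, and 0 with sex pattern or control feature split as a block. With the sex block 0 of all 18193 genes were called higher and 0 lower. No MN1VP16 array shares its sex pattern with an MN1 array, so that fit joins them only through Gr1Mac. Its median of 1.28, against 0.76, is thus no sex-adjusted difference between the constructs. Leaving out arrays gave medians of 0.42 to 1.25. Those fits leave a group with 1 array, so their counts of calls are not given. MN1VP16 against Gr1Mac: the 1 called higher was 0 without the dimmest 40% of genes (which removes Gbp8), with centring, with only the 4 arrays and with the replicate block, and 3 with the control feature block. The 1 called lower was 0 with the mean of all probe sets, without _x_at, _s_at and _a_at sets, with only the 4 arrays, and with the sex or control feature block. Leaving out arrays gave medians of -0.11 to 0.81. MN1 against Gr1Mac: the 9 called lower were 5 without _x_at, _s_at and _a_at sets (30 members measured) and with the sex block. With the control feature block 1 was called lower and 1 higher, and the median was 0.43. That block joins MN1 and Gr1Mac only through the gap between the MN1VP16 arrays. Leaving out arrays gave medians of -0.86 to -0.17. The causes were not tested. The replicate block gave 2, 0 and 0 higher in the 3 comparisons as listed and 7 lower in MN1 against Gr1Mac. Of the 13 single calls, none turned sign under any alternative, 12 were lost with the control feature block, 9 with the sex block and 4 with the replicate block, 0 without the dimmest 40% of genes (11 measured) or with the trend. Centring moved the median of all genes from -0.06 to -0.32 in MN1 against Gr1Mac and from 0.00 to -0.21 in MN1VP16 against Gr1Mac, and shifted the members by the same amount by construction. Calls over all genes were then 2484 higher and 4003 lower, against 3147 and 2187, in MN1 against Gr1Mac, and 530 and 946, against 666 and 384, in MN1VP16 against Gr1Mac. Signal near background limits Gbp8 and Mx1.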
